A study of Homo sapiens with 14 samples.

Results

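The comparison asked which transcripts changed in KMT2D-knockout head and neck squamous cell carcinoma cells when glucose was taken away for 6 h. It used every polyA RNA library of the KMT2D-knockout genotype, 8 of the 14 libraries of the series. The 4 glucose-deprived libraries (-Glc) and the 4 libraries from cells kept in high glucose medium (+Glc) each came from the knockout lines KO1 and KO2 in experiments 1 and 2. All were SCC23, an established human head and neck squamous cell carcinoma line. Cells had been transfected for 24 h with a Cas9-GFP plasmid carrying an sgRNA against KMT2D, and GFP-positive cells were sorted and grown on. The KMT2D-WT cells, which appear here only for the size of the same change, received an sgRNA against LacZ and gave 3 libraries in each condition. Cloning from single cells was not described for either knockout line, and the labels do not say whether the libraries of an experiment came from separate cultures, so p-values measure the spread between these libraries.

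KMT2D is a histone methyltransferase that places H3K4 monomethylation at enhancers. When glucose runs out, glycolysis, the pentose phosphate pathway and the supply of sugars for protein glycosylation all lose their substrate, and misfolded glycoproteins accumulate in the endoplasmic reticulum. Cells meet this through the integrated stress response, in which phosphorylated eIF2α favours translation of ATF4, through the unfolded protein response of IRE1, PERK and ATF6, and through AMPK, which restrains mTORC1. The glucose sensor MondoA (MLXIP) with its partner MLX reads glucose 6-phosphate and drives TXNIP and ARRDC4 when sugar is plentiful.

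Library totals ran from 15669154 to 61939228 counts with glucose and from 18096785 to 26936339 without it. The 2 KMT2D-KO +Glc libraries of experiment 2 counted both mates of each pair, which leaves ratios within a library in place but makes counting noise look smaller than it is. Epithelial markers were present throughout, with ITGB4 at 696 to 1088 CPM (counts divided by the TMM-scaled library total in units of 1000000) and TP63 at 70.5 to 243 CPM, although KRT6A never exceeded 1.13 CPM. KRT5, a keratin of basal epithelium, differed between the lines. It measured 8.44 and 1.53 CPM in the +Glc KO1 libraries of experiments 1 and 2 against 165 and 82.4 CPM in KO2, and 15.4 CPM in the -Glc KO1 library of experiment 1 against 176.5 to 225 CPM in the other 3 -Glc libraries, including the one labelled KO1 in experiment 2. Of 25 marker genes of fibroblasts, leukocytes, endothelium, blood and melanocytes, 4 were abundant enough to test, the highest value was 15.4 CPM, and HBB was at 0 in all 8 libraries.

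The line label of a library was in doubt. Among 33 genes that separated KO1 from KO2 by at least 3 log2 units with glucose in both experiments, the -Glc library labelled KO1 in experiment 2 was nearer KO2 for all 33, with a median distance of 0.42 log2 units to KO2 and 4.90 to KO1. It also differed from the -Glc KO2 library of that experiment by a chi-square of 1.71 per gene, against 23.0 to 72.7 for the other pairs of lines. Both libraries were kept because the labels name them as separate samples, and the chi-square does not tell replicates from repeat preparations of 1 sample. The label-matched differences of experiment 2 correlated at 0.925 across genes, against 0.414 to 0.483 for the other pairs of differences. Summed into 1 library, the 2 gave 1101 genes called higher and 1181 lower, against the 2240 and 2573 given below with both. Results are therefore also given with both libraries labelled KO1 in experiment 2 left out, which leaves 3 against 3.

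With glucose, the targeted transcript did not separate the genotypes. Without it, every KMT2D-KO library was below every KMT2D-WT library. KMT2D (chr12:49018978-49060794, GRCh38) measured 175, 320.3, 187 and 371 CPM with glucose and 19.9, 189.9, 148 and 146 CPM without it, in the order KO1 and KO2 of experiment 1 and then KO1 and KO2 of experiment 2, an order kept for all values below. KMT2D-WT cells held 270.5 to 274 CPM with glucose and 234 to 239 CPM without it. The knockout libraries labelled KO2 with glucose, at 320.3 and 371 CPM, were above every WT library, and the lowest value of all was the -Glc KO1 library of experiment 1. Small insertions and deletions left by Cas9 need not lower a transcript, so this level is no test of the knockout. The change without glucose did not pass the test (log2 fold change -1.11 ± 0.59 (SE), adjusted p = 0.182).

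Glucose deprivation moved many transcripts of KMT2D-KO cells in both directions. By edgeR's quasi-likelihood test with experiment as a covariate, 2240 of 16057 genes were higher without glucose (14%) and 2573 were lower (16%), at a Benjamini-Hochberg adjusted p under 0.05 and with the same sign in experiment 1. Of these, 470 rose at least 2-fold and 1342 fell at least 2-fold. The sign requirement removed no gene, and experiment 1 is part of the same fit. The 2 conditions did not overlap for 2799 of the 4813 called genes and for 22.1% of all tested genes, a description of genes called on the same libraries. In bulk RNA, a changed share of cells and a changed amount of RNA per cell cannot be told apart. With both libraries labelled KO1 in experiment 2 left out, 99 genes were called higher and 275 lower. Scaling by library size alone gave 1005 higher and 3869 lower, and the median log2 fold change of all genes was then -0.20 rather than 0.005.

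**Figure D1:**
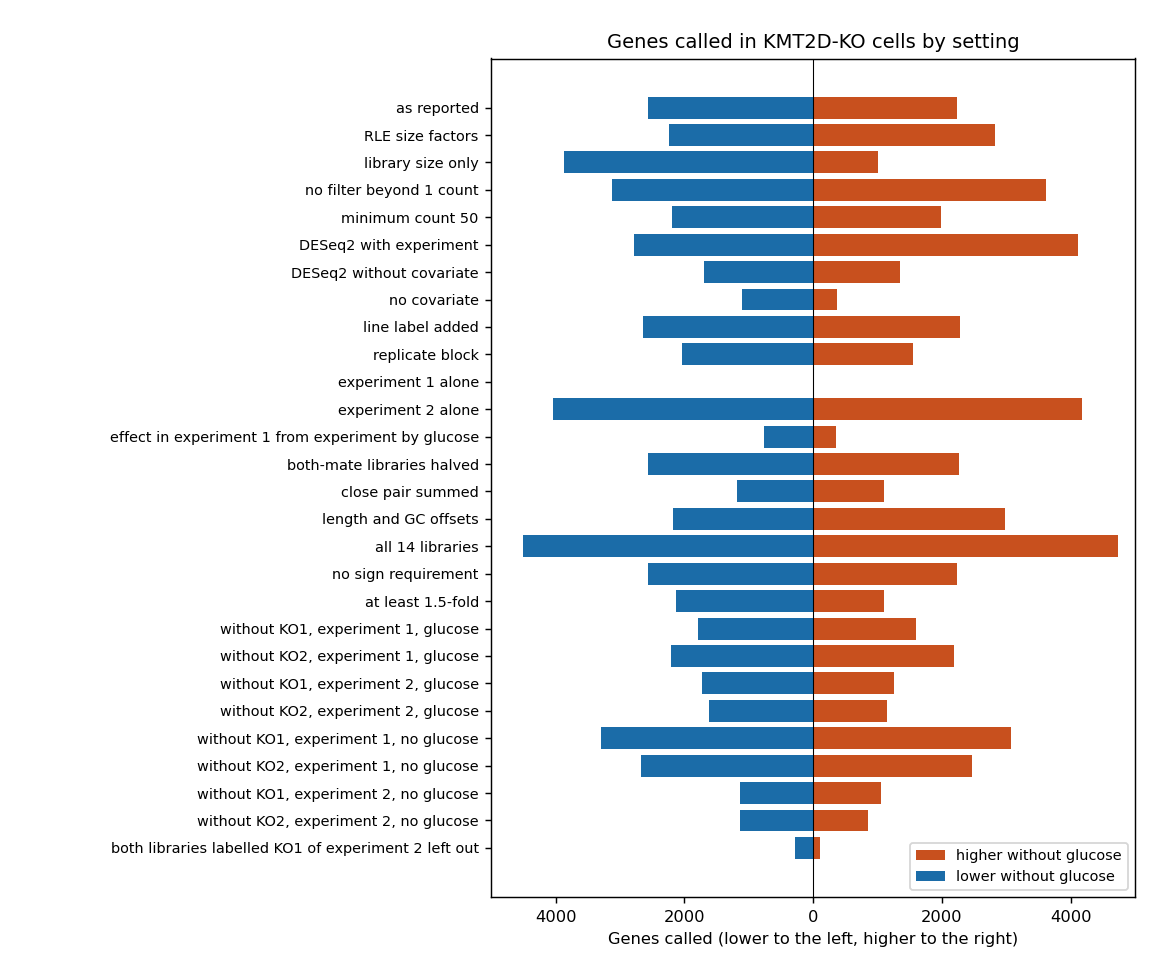
Genes called higher (right) and lower (left) without glucose in KMT2D-KO cells under each setting, in number of genes, with the reported 2240 and 2573 as the top bar. Bars without both KO1 libraries of experiment 2 shrink to 99 and 275, and experiment 1 alone gives none.

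The 10 genes with the largest rises included GDF15, DUSP1, PPP1R15A and CCN1. GDF15 (chr19:18374731-18389176), a secreted stress cytokine, measured 1.42, 0.769, 0.726 and 0.27 CPM with glucose and 9.6, 16.2, 10.8 and 12.8 CPM without it. DUSP1 (chr5:172768096-172771195), a phosphatase that turns off MAP kinases, measured 23.6, 26.2, 19.6 and 15.3 CPM with glucose and 360.1, 250.2, 191 and 203 CPM without it. Every glucose-deprived library was above every library with glucose for both genes. GDF15 rose 16.4-fold (log2 fold change 4.04 ± 0.45 (SE), adjusted p = 0.00164) and DUSP1 rose 11.5-fold (log2 fold change 3.52 ± 0.15 (SE), adjusted p = 7.95e-05). PPP1R15A (chr19:48872421-48876058), the GADD34 subunit that brings protein phosphatase 1 to phosphorylated eIF2α, measured 86.5, 83.7, 65.6 and 48.9 CPM with glucose and 651, 944, 686 and 680.0 CPM without it. It rose 10.3-fold (log2 fold change 3.37 ± 0.18 (SE), adjusted p = 0.000131), again with no overlap. CCN1 (chr1:85580761-85584589), a matricellular protein, measured 244, 272, 226 and 233 CPM with glucose and 3787, 1798, 1544 and 1573 CPM without it, with the KO1 library of experiment 1 far above the others, and rose 8.38-fold (log2 fold change 3.07 ± 0.25 (SE), adjusted p = 0.000614).

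The other genes among the 10 with the largest rises served several functions. IL6, an inflammatory cytokine, rose 9.69-fold (adjusted p = 0.000159) and PPP1R3B, which targets protein phosphatase 1 to glycogen, rose 8.9-fold (adjusted p = 0.000883). DDX47, an RNA helicase of ribosome assembly, rose 8.27-fold from 1.2 ± 0.727 CPM with glucose to 9.72 ± 4.75 CPM without it (mean ± SD, n = 4 each). LURAP1L rose 9.41-fold (adjusted p = 0.000922). PTGER4, a prostaglandin E2 receptor, measured 3.84, 0.721, 3.41 and 0.625 CPM with glucose and 40.5, 15.1, 15.4 and 15.2 CPM without it and rose 9.34-fold (adjusted p = 0.0133). In the glucose group its KO1 libraries were above its KO2 libraries, and with both libraries labelled KO1 in experiment 2 left out its adjusted p was 0.0576. KRT17, a keratin of activated keratinocytes, measured 73.6, 218, 24.4 and 72.9 CPM with glucose and 367, 1301, 682 and 706 CPM without it. Its level with glucose was lower in KO1 than in KO2 within each experiment, and its 8.86-fold rise (adjusted p = 0.0102) had an adjusted p of 0.0748 with those libraries left out.

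Among the genes that fell most, TXNIP (chr1:145992435-145996579), an arrestin-like inhibitor of glucose uptake that is the best known MondoA target, measured 43.1, 45.4, 50.1 and 67.1 CPM with glucose and 9.73, 3.19, 3.53 and 3.55 CPM without it. It fell 10.9-fold (log2 fold change -3.44 ± 0.40 (SE), adjusted p = 0.00193), and its least reduced library was KO1 of experiment 1. PPP1R10 (chr6:30600413-30618612), which targets protein phosphatase 1 to RNA polymerase II, measured 120.0, 153, 104 and 136 CPM with glucose and 41.2, 15.7, 16.2 and 17.3 CPM without it and fell 5.98-fold (log2 fold change -2.58 ± 0.30 (SE), adjusted p = 0.00191). DOK3 (chr5:177501907-177511274), an adaptor that dampens receptor signalling, measured 28.9, 28.2, 33.5 and 30.6 CPM with glucose and 6.53, 7.17, 5.53 and 5.54 CPM without it and fell 5.03-fold (log2 fold change -2.33 ± 0.13 (SE), adjusted p = 0.000159). No library of one condition reached the range of the other for these 3 genes. RBM12B, an RNA-binding protein, measured 33.8, 31.9, 40 and 42.2 CPM with glucose and 6.9, 7.39, 10.1 and 10.7 CPM without it and fell 4.34-fold (log2 fold change -2.12 ± 0.12 (SE), adjusted p = 0.000159).

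The transcription factor LHX1 fell 7.42-fold, and its level with glucose was 121 and 118 CPM in KO1 against 59.0 and 42.4 CPM in KO2. FZD4, a Wnt receptor, fell 4.83-fold, IL18BP, a decoy receptor for interleukin 18, fell 4.62-fold, and TRPV1, a cation channel, fell 4.41-fold, with adjusted p from 0.00063 to 0.00187. KCNQ1OT1, a long RNA antisense to KCNQ1, fell 4.97-fold (adjusted p = 0.0155), a call lost without the -Glc KO2 library of experiment 2, and counting without strand cannot separate it from KCNQ1. The mitochondrial tRNA MT-TP measured 0.768, 2.55, 45.3 and 213 CPM with glucose and 0.0628, 1.4, 1.76 and 2.24 CPM without it. Its highest values were the +Glc libraries of experiment 2 and the groups overlapped. The 19.8-fold fall (adjusted p = 0.0453) was -6.00 in experiment 2 and -1.21 in experiment 1 on the log2 scale, and the call was lost on leaving out any of 6 libraries.

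**Figure D2:**
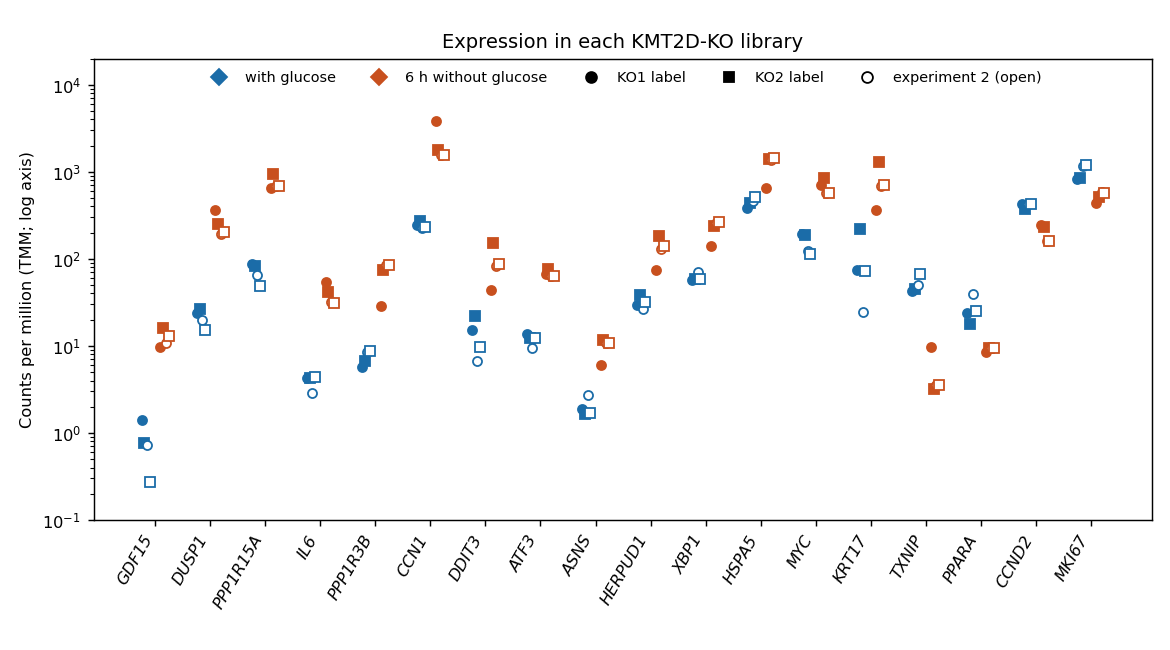
CPM (log10 axis) of selected genes in each of the 8 KMT2D-KO libraries, blue with glucose and orange without it, circles for KO1 and squares for KO2, filled for experiment 1 and open for experiment 2. The -Glc points of GDF15, DUSP1 and PPP1R15A lie above all +Glc points, and those of TXNIP and MKI67 lie below.

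Transcripts of the ATF4 stress response rose together. Of 46 list genes tested, 28 rose and 1 fell, and the median log2 fold change was 0.79, against 0.005 over all genes. ATF3 (chr1:212565334-212620777), a stress-induced bZIP factor, measured 13.5, 12.2, 9.57 and 12.2 CPM with glucose and 66.8, 76.2, 64.2 and 64.3 CPM without it, which left a wide gap between the conditions, and rose 5.6-fold (log2 fold change 2.48 ± 0.12 (SE), adjusted p = 0.000131). DDIT3, the proapoptotic factor CHOP, measured 15.1, 22.2, 6.78 and 9.65 CPM with glucose and 43.6, 153, 83 and 87.5 CPM without it and rose 7.26-fold (adjusted p = 0.00463, and 0.0582 with both libraries labelled KO1 in experiment 2 left out). ASNS, which makes asparagine, rose 4.84-fold from 1.98 ± 0.494 CPM with glucose to 9.79 ± 2.59 CPM without it (mean ± SD, n = 4 each), with the lowest -Glc value of 5.96 CPM in KO1 of experiment 1. SESN2, a leucine sensor that restrains mTORC1, rose 3.62-fold (adjusted p = 0.000273), and DDIT4, the mTORC1 inhibitor REDD1, rose 2.85-fold (adjusted p = 0.000398). ATF5, itself a bZIP factor under translational control, was the list's gene that fell, by 1.6-fold (adjusted p = 0.0323), and its call was lost on leaving out any of 5 libraries and with line label and experiment as a block (adjusted p = 0.0725). Once both libraries labelled KO1 in experiment 2 were left out, 9 ATF4 genes were called higher and 27 had an unadjusted p under 0.05 in that direction.

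By role, the feedback and death genes of the ATF4 list had the highest median, 1.89, with 7 of 8 called higher. Of the other roles, the secreted factors had 3 of 5 higher (median log2 fold change 1.17), the kinases and factors 6 of 11 higher and 1 lower (median 0.81) and the amino acid synthesis genes 9 of 12 higher (median 0.60), while 3 of 10 amino acid transporters were higher (median 0.36). Aminoacyl-tRNA synthetases, which charge tRNAs and include many ATF4 targets, rose in 14 of 20 cases with a median of 0.45. CARS1 (cysteine) measured 98.1, 110.1, 78.9 and 66.1 CPM with glucose and 174, 236, 186 and 192 CPM without it and rose 2.22-fold (log2 fold change 1.15 ± 0.14 (SE), adjusted p = 0.00249), the largest rise of the 20. GARS1 (glycine) rose 1.78-fold (adjusted p = 0.0125). Only 1 synthetase was called with both libraries labelled KO1 in experiment 2 left out, although 9 had an unadjusted p under 0.05.

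CHAC1, a glutathione-degrading enzyme and ATF4 target named here after its values were seen, measured 6.79, 7.98, 10.2 and 7.15 CPM with glucose and 50.9, 37.9, 23.4 and 22.5 CPM without it. Its 3.88-fold rise in KMT2D-KO cells (log2 fold change 1.96 ± 0.27 (SE), adjusted p = 0.00332) stood beside a log2 fold change of 2.29 in KMT2D-WT cells. To show the letters behind such genes, windows of 250 bases before RefSeq gene starts (GRCh38.p14) were searched on both strands for the ATF4 element TGATGCAA. It was present in 0.772% of all 35116 windows, in 0.601% of tested genes with a window, in 1.04% of genes called higher and in 0.42% of genes called lower. Of 37 ATF4-list genes with a window 5 held it, namely CEBPG, CHAC1, JDP2, MTHFD1L and SLC1A5, all among the 24 called higher. The list was written as ATF4 response genes, so its share was no test of the response to glucose. The 2 stretches that follow are shown for CHAC1 and for HERPUD1 of the endoplasmic reticulum list, with the element, here on the opposite strand as TTGCATCA, in capitals.
CHAC1 (chr15:40953221-40953314, plus strand): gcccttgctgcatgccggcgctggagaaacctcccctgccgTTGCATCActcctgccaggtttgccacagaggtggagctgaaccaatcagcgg
HERPUD1 (chr16:56931921-56932018, plus strand): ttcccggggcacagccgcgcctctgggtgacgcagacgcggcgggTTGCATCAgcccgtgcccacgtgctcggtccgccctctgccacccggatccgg
A match is a string of letters and was not tested for binding.

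Of 40 endoplasmic reticulum stress genes tested, 13 rose and 4 fell (median log2 fold change 0.24), with 15 higher and 1 lower under offsets for gene length and GC content. The risers included 7 of the 13 chaperones and 2 of 9 disulfide isomerases, and the difference between roles was not tested. HERPUD1 (chr16:56932142-56944864), a component of the degradation machinery, measured 29.7, 38.9, 26.3 and 32 CPM with glucose and 74.4, 185, 129 and 139 CPM without it and rose 4.09-fold (log2 fold change 2.03 ± 0.27 (SE), adjusted p = 0.00308). XBP1 (chr22:28794555-28800597), the factor spliced by IRE1, measured 57.1, 58.1, 70 and 58.3 CPM with glucose and 142, 240.4, 261 and 266 CPM without it and rose 3.61-fold (log2 fold change 1.85 ± 0.18 (SE), adjusted p = 0.00101). HSPA5 (chr9:125234853-125241343), the chaperone BiP, measured 386, 433, 464 and 509.6 CPM with glucose and 655, 1388, 1379 and 1427 CPM without it and rose 2.62-fold (log2 fold change 1.39 ± 0.22 (SE), adjusted p = 0.00515). None of the 3 overlapped between conditions, and the KO1 library of experiment 1 had the smallest -Glc value of each. DNAJB9, a BiP cochaperone, rose 3.17-fold (adjusted p = 0.0084), although its -Glc KO1 library of experiment 1 fell within the glucose range. EDEM3, which trims mannose from misfolded glycoproteins, went the other way and fell 3.29-fold (log2 fold change -1.72 ± 0.11 (SE), adjusted p = 0.000273). In the fit without both libraries labelled KO1 in experiment 2, 1 gene was higher and 1 lower, and adjusted p for HERPUD1 and HSPA5 were 0.0502 and 0.068.

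The endoplasmic reticulum stress element, CCAAT and CCACG separated by 9 bases, was in 0.074% of all windows and in 8 of 37 genes of this list. Among these, CALR, HSPA5 and XBP1 were called higher, and CANX, CRELD2, ERO1B, HSP90B1 and PDIA6 were not called in either direction. The cyclic AMP response element TGACGTCA, bound by CREB and ATF family factors, was in 1.65% of all windows and in 3.43% of tested genes. It was in 3.85% of genes called higher and in 3.42% of genes called lower. Of 26 immediate early genes with a window 4 held it (DUSP1, DUSP8, JUND and MAFF), all among the 11 called higher. PPP1R15A held it as well. The list came from general knowledge of such genes, so its share was no test of the response to glucose. The elements of 4 genes with large changes are printed in capitals with their surroundings, 5′ to 3′ on the strand of the gene.
HSPA5 (chr9:125241346-125241454, minus strand): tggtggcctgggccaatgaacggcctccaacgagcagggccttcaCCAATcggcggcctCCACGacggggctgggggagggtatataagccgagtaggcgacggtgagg
XBP1 (chr22:28800570-28800666, minus strand): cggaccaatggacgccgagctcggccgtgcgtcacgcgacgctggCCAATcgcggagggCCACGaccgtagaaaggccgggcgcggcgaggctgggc
PPP1R15A (chr19:48872318-48872415, plus strand): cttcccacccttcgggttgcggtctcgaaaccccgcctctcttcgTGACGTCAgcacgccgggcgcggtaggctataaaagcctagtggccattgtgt
DUSP1 (chr5:172771268-172771365, minus strand): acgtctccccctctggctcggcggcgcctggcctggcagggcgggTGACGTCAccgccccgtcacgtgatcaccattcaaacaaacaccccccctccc
The letters alone do not show that a factor bound there.

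Cytosolic heat shock genes also rose, 8 of 15 with a median log2 fold change of 0.48. DNAJB1, an HSP70 cochaperone, measured 209, 236, 225 and 214 CPM with glucose and 1418, 509, 461 and 478 CPM without it, and its 2.98-fold rise (adjusted p = 0.0126) was uneven, with the -Glc KO1 library of experiment 1 far above the other 3. Its adjusted p was 0.0501 without the +Glc KO1 library of experiment 1. BAG3, an HSP70 nucleotide exchange factor, rose 1.76-fold (adjusted p = 0.00617). No gene of this list was called by edgeR with both libraries labelled KO1 in experiment 2 left out, and 6 had an unadjusted p under 0.05, while the block left 5 called higher.

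The targets of the MondoA sensor did not move as a block. Of 8 sensor and target genes tested, 3 fell and 2 rose. Among the 5 targets 2 fell and 1 rose (median log2 fold change -0.71), and among the 3 sensor genes 1 fell and 1 rose. TXNIP fell as given above, whereas ARRDC4 measured 0.827, 2.21, 1.06 and 5.82 CPM with glucose and 0.126, 1.18, 1.44 and 1.52 CPM without it, with a log2 fold change of -1.24 that did not pass the test (adjusted p = 0.212). ARRDC3, a related arrestin-like gene, rose 5.03-fold (log2 fold change 2.33 ± 0.28 (SE), adjusted p = 0.00211). MLX rose 1.41-fold (adjusted p = 0.00797), MLXIP itself was not called (log2 fold change -0.27, adjusted p = 0.513), and MLXIPL, which encodes ChREBP, fell 2.53-fold (adjusted p = 0.0237) at no more than 3.01 CPM. KLF10, a glucose-responsive factor, fell 1.64-fold (adjusted p = 0.0175, and 0.113 with offsets for length and GC content). Without both libraries labelled KO1 in experiment 2, 1 gene was higher and 1 lower. Calls of MLXIPL and KLF10 were lost on leaving out any of 5 and 3 libraries, and MLXIPL had an adjusted p of 0.0573 with the block.

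Some glycolytic genes rose, by small amounts. Of 41 tested, 15 were higher and 2 lower, and the median log2 fold change was 0.34. SLC2A1, the glucose transporter GLUT1, measured 151, 135, 115 and 101 CPM with glucose and 239, 303, 214 and 211 CPM without it, every -Glc value being above every +Glc value, and rose 1.88-fold (log2 fold change 0.91 ± 0.11 (SE), adjusted p = 0.00199). ENO1, the main enolase, rose 1.41-fold (adjusted p = 0.0109) from 2092 ± 306 CPM with glucose to 3002 ± 302 CPM without it (mean ± SD, n = 4 each). ALDOA, an aldolase, rose 1.69-fold (adjusted p = 0.00793), with levels in experiment 2 below those in experiment 1 in both conditions, so the groups overlapped. The muscle enolase ENO3 fell 2.12-fold (adjusted p = 0.00845). HK2, the inducible hexokinase, had a log2 fold change of 0.66 (adjusted p = 0.0817) and PFKFB3, which activates phosphofructokinase, one of 0.21 (adjusted p = 0.448), and neither passed the test.

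The calls of 2 glycolytic genes were fragile. PGK1, phosphoglycerate kinase, rose 1.26-fold (adjusted p = 0.0297) and LDHB, a lactate dehydrogenase subunit, 2.2-fold (adjusted p = 0.0491), and these calls were lost on leaving out any of 6 and 5 libraries and with the block (adjusted p = 0.0661 and 0.0979). LDHB measured 59.1, 64, 20.1 and 25.7 CPM with glucose and 85.7, 65.9, 87.3 and 99.7 CPM without it, so its change was large in experiment 2 and small in experiment 1. With both libraries labelled KO1 in experiment 2 left out, 1 glycolytic gene was called higher and 10 had an unadjusted p under 0.05, and with the block 8 were called higher.

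In the pentose phosphate pathway 5 of 10 genes rose, led by the transketolase TKT (1.65-fold, adjusted p = 0.00517), and 1 fell. Among gluconeogenesis and glycogen genes 5 of 15 rose (8 with offsets for length and GC content) and 2 fell. PCK2, which makes phosphoenolpyruvate in mitochondria and is also an ATF4 target, rose 1.61-fold (adjusted p = 0.0154), and the glycogen phosphorylase PYGL rose 1.42-fold (adjusted p = 0.0109). Of 25 hexosamine and other glycosylation precursor genes, 4 rose and 2 fell, all 6 of them in mannose and fucose metabolism. Of 20 fatty acid oxidation genes, 7 were higher (3 with the block) and 3 lower (1 with the offsets), and PPARA, the nuclear receptor for fatty acids, fell 2.85-fold (log2 fold change -1.51 ± 0.20 (SE), adjusted p = 0.00314). Of 41 cholesterol and fatty acid synthesis genes, 5 were higher and 1 lower (2 and 3 with the block, 9 higher with the offsets), and CAD, which starts pyrimidine synthesis, fell 1.77-fold (adjusted p = 0.00542). For comparison with the lists of this paragraph, 14% of all genes were higher and 16% lower. In the 3 against 3 fit edgeR called 2 gluconeogenesis and glycogen genes higher, 1 fatty acid oxidation gene lower and 0 pentose phosphate genes, 4 of which were higher at an unadjusted p under 0.05. It called 0 genes of the hexosamine and cholesterol lists, where 4 were higher and 2 lower, and 3 higher and 2 lower, at an unadjusted p under 0.05.

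**Figure D3:**
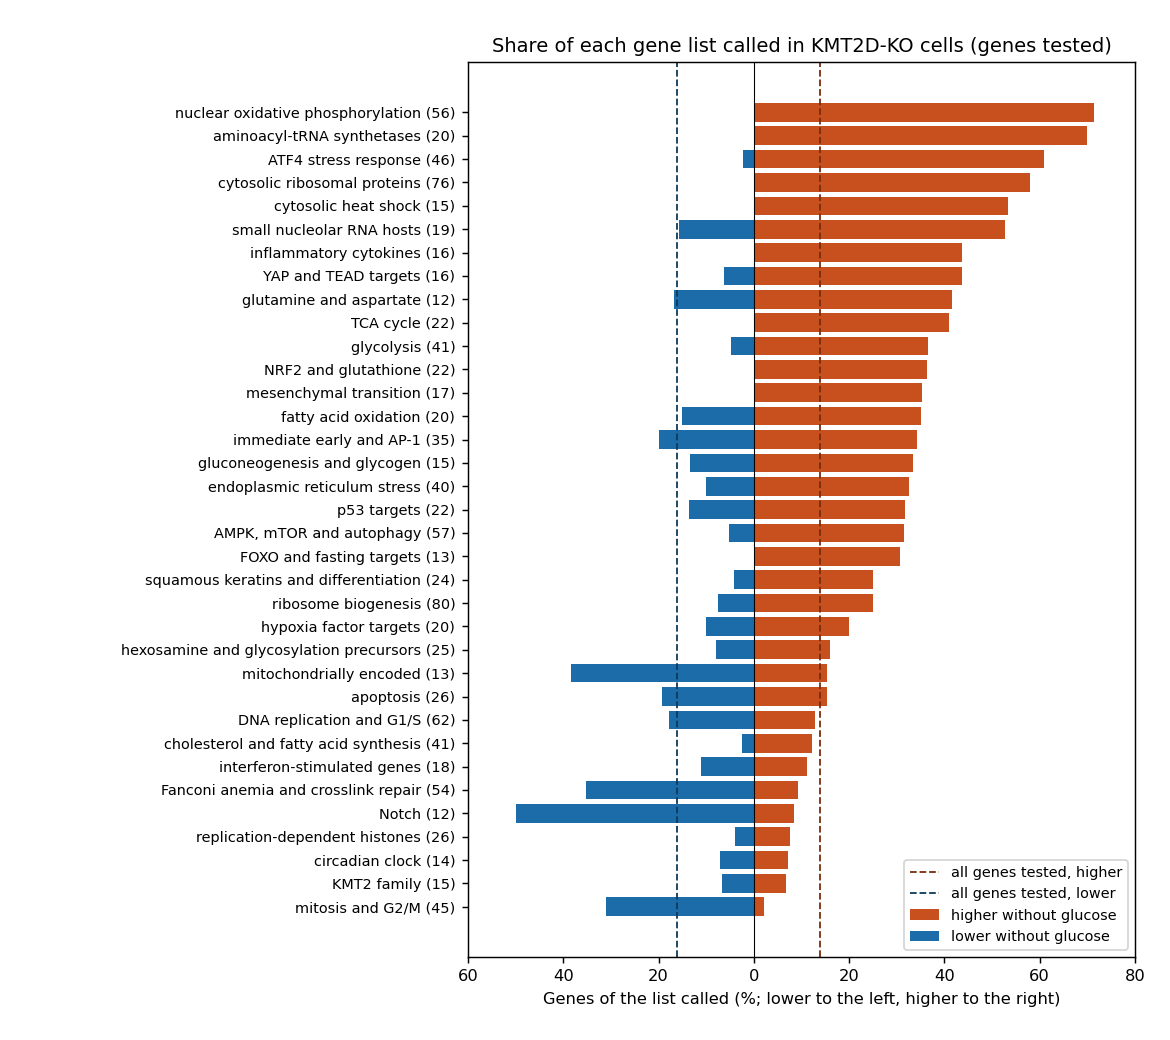
Share of the tested genes of each list with at least 12 tested genes that was called higher (orange, to the right) or lower (blue, to the left) without glucose in KMT2D-KO cells, in percent, with the number tested in brackets. Dashed lines mark the shares over all tested genes, 14% higher and 16% lower, and the longest bars are nuclear oxidative phosphorylation among the higher and Notch among the lower shares.

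Nuclear genes of oxidative phosphorylation shifted one way by small amounts. Of 56 tested, 40 rose and the median log2 fold change was 0.55, while 9 of 22 TCA cycle genes rose (median 0.30). COX8A, a subunit of cytochrome c oxidase, measured 223, 256, 59.6 and 66.9 CPM with glucose and 419.5, 338, 185 and 195 CPM without it. It rose 2.13-fold (adjusted p = 0.00933), but with offsets for gene length and GC content its log2 fold change was -0.0577 (adjusted p = 0.818), and 31 genes of the list were called higher. With the block 23 were. Of 76 ribosomal protein genes 44 were higher, with a median of 0.44, although their reads can be split with those of processed pseudogenes. Their log2 fold changes ran from -1.57 to 1.81 and 61 were above 0, against all 56 of the oxidative phosphorylation genes. Their median was 0.62 in experiment 1 and 0.30 in experiment 2, against 0.37 and 0.70 for the oxidative phosphorylation genes. RPL11 rose 1.79-fold (adjusted p = 0.00661) with levels of experiment 1 above those of experiment 2 in both conditions. Once both libraries labelled KO1 in experiment 2 were left out, edgeR called 0 genes of these lists, although 36 of the 56, 46 of the 76 and 8 of the 22 TCA cycle genes had an unadjusted p under 0.05 with a higher level. The summed level of the ribosomal proteins ranged from 44650 to 70330 CPM with glucose and from 52370 to 110500 CPM without it, which overlapped.

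Of the 13 mitochondrially encoded mRNAs, 5 fell and 2 rose. MT-CO3, a cytochrome c oxidase subunit, measured 2376, 2448, 3035 and 3022 CPM with glucose and 1663, 1312, 1245 and 1266 CPM without it and fell 2.02-fold (log2 fold change -1.01 ± 0.13 (SE), adjusted p = 0.00285) without overlap. MT-ND4, a complex I subunit, rose 1.47-fold (adjusted p = 0.00845), but its adjusted p was 0.922 with offsets for length and GC content, and neither of the 2 rises was called there. The median of the 13 was -0.47, on the other side of 0 from the nuclear subunits. In the 3 against 3 fit edgeR called 0 of them, with 2 higher and 5 lower at an unadjusted p under 0.05, and nuclear copies of these genes can share their reads.

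In the AMPK, mTOR and autophagy list 18 of 57 genes rose (28 with offsets for length and GC content) and 3 fell. The rises included 11 of 32 autophagy and lysosome genes. GABARAPL1, an ATG8 family member of autophagosomes, measured 22.6, 33.1, 21.2 and 35.7 CPM with glucose and 50.3, 159, 116 and 121 CPM without it. It rose 3.87-fold (log2 fold change 1.95 ± 0.35 (SE), adjusted p = 0.0078), and the KO1 library of experiment 1 was the lowest of the -Glc group. Of 13 FOXO and fasting targets 4 rose. CITED2, a transcriptional coregulator, measured 22.5, 25.9, 19.1 and 24.2 CPM with glucose and 92.1, 115, 88.2 and 92.5 CPM without it and rose 4.13-fold (log2 fold change 2.05 ± 0.12 (SE), adjusted p = 0.000159), while IRS2, an insulin receptor substrate, rose 2.75-fold (adjusted p = 0.0145) with almost no difference in KO1 of experiment 1 (30.5 and 37.2 CPM). In the fit without both libraries labelled KO1 in experiment 2, 3 genes of the first list and 1 of the second were called higher.

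Growth and cell cycle genes went in different directions. MYC, which drives ribosome biogenesis and growth, measured 191, 190.0, 124 and 113 CPM with glucose and 708, 837, 569 and 569 CPM without it. The lowest -Glc library, at 569 CPM, was far above the highest +Glc library, at 191 CPM, and the rise was 4.32-fold (log2 fold change 2.11 ± 0.11 (SE), adjusted p = 0.000131). Of 80 ribosome biogenesis genes, 20 were higher and 6 lower (median 0.16), with a median log2 fold change of -0.04 in experiment 1 and 0.33 in experiment 2, and 1 was higher in the 3 against 3 fit. The G1 cyclin CCND2 fell 2.15-fold (log2 fold change -1.11 ± 0.14 (SE), adjusted p = 0.00224), CDC25A, which activates CDK2, fell 1.84-fold (adjusted p = 0.002), and E2F2 fell 3.31-fold (adjusted p = 0.00994). Within the 62 DNA replication genes, 8 rose and 11 fell, near the 14% and 16% over all genes, and with offsets for length and GC content 14 were higher and 8 lower. In the 3 against 3 fit 4 fell. CDT1, the licensing factor that loads MCM helicases, rose 1.78-fold (adjusted p = 0.00456), whereas GINS1, part of the active helicase, measured 50.8, 77.7, 65 and 79.8 CPM with glucose and 33.1, 27.2, 27 and 27.2 CPM without it and fell 2.44-fold (log2 fold change -1.28 ± 0.15 (SE), adjusted p = 0.00206).

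More mitotic genes fell than rose. Of 45 tested, 14 fell and 1 rose, the median log2 fold change was -0.33, and 11 of the 14 belonged to the 29 spindle and segregation genes. MKI67, the proliferation antigen Ki-67, measured 836, 857, 1151 and 1202 CPM with glucose and 433, 512, 586 and 574 CPM without it and fell 1.95-fold (log2 fold change -0.96 ± 0.09 (SE), adjusted p = 0.000871). ASPM, a spindle pole protein, fell 2.48-fold (log2 fold change -1.31 ± 0.08 (SE), adjusted p = 0.000225), with its 2 conditions apart within each experiment and overlapping across experiments. ESPL1, the separase that splits sister chromatids, fell 2.53-fold (adjusted p = 0.0025). Left without both libraries labelled KO1 in experiment 2, 5 mitotic genes were lower, and MKI67, ASPM and ESPL1 kept their calls (adjusted p = 0.0319, 0.0185 and 0.0319).

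Genes of the Fanconi anemia and crosslink repair pathway, which unhooks and repairs interstrand crosslinks, gave 19 lower and 5 higher of 54 tested (3 higher with the block), with a median log2 fold change of -0.23. With offsets for length and GC content 15 were lower and 9 higher, and the median was -0.07. The study took up this pathway by comparing KMT2D-KO with KMT2D-WT cells without glucose, which is a different comparison from the one here. It used the same -Glc libraries, so the direction is not independent evidence. The study's qRT-PCR, western blots and counts of FANCD2 foci were not examined here. The ubiquitin ligase core complex had 2 of 14 lower and 2 higher, near the 16% and 14% over all genes. The effectors had 9 of 18 lower, and the recombination and checkpoint genes 8 of 22 lower. FANCD2, the pathway's central monoubiquitinated protein, measured 64.1, 73.8, 92.6 and 111 CPM with glucose and 68.6, 64.4, 77.7 and 79.7 CPM without it, with overlapping groups and no call (log2 fold change -0.24, adjusted p = 0.0971). SLX4, a scaffold for structure-specific nucleases, measured 40.4, 32.1, 35.4 and 25.8 CPM with glucose and 10.5, 17.9, 13.4 and 13 CPM without it and fell 2.49-fold (log2 fold change -1.31 ± 0.20 (SE), adjusted p = 0.00496).

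Named genes of the pathway that fell include nucleases, a polymerase and checkpoint genes. ERCC4, the XPF nuclease, fell 2.76-fold (adjusted p = 0.00995), a call that ended at 0.0502 without the -Glc KO1 library of experiment 2. The translesion polymerase POLH fell 2.26-fold (adjusted p = 0.00217) and the nuclease FAN1 fell 1.86-fold (adjusted p = 0.00152, and 0.0527 with offsets for length and GC content). ATR, the checkpoint kinase, fell 1.62-fold (adjusted p = 0.00677) and BRCA1 fell 1.59-fold (adjusted p = 0.00312), both with higher levels in experiment 2 than in experiment 1 and so with overlapping groups. FANCE, a core complex member, rose 1.48-fold (adjusted p = 0.00397). With both libraries labelled KO1 in experiment 2 left out, 3 genes were lower, and 17 had an unadjusted p under 0.05 in that direction, with adjusted p of 0.0458 for POLH, 0.0474 for FAN1 and 0.0638 for SLX4.

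Of 35 immediate early genes, which respond to signals within minutes to hours, 12 rose and 7 fell, and with offsets for length and GC content 14 were higher and 3 lower. Among the 20 transcription factors 8 rose and 2 fell, and among the 15 feedback genes of ERK signalling 4 rose and 5 fell, a difference between roles that was not tested. KLF4, a factor of epithelial barrier cells, measured 22.2, 29.1, 26.4 and 23.9 CPM with glucose and 110.0, 191, 184 and 182 CPM without it and rose 6.4-fold (log2 fold change 2.68 ± 0.19 (SE), adjusted p = 0.000419). The phosphatase DUSP10, which acts on p38 and JNK, rose 4-fold (adjusted p = 0.000927). IER2 fell 2.6-fold (adjusted p = 0.00206), with the KO1 -Glc value of experiment 1 inside the glucose range. The 3 against 3 fit called 7 of these genes higher and 1 lower.

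Targets of YAP and TEAD, the effectors of the Hippo pathway, included several of the largest rises, with 7 of 16 higher and 1 lower. CCN2 (chr6:131948176-131951372), the connective tissue growth factor, measured 69.6, 69.5, 76.3 and 59.8 CPM with glucose and 768, 495, 459 and 480.2 CPM without it and rose 7.74-fold (log2 fold change 2.95 ± 0.17 (SE), adjusted p = 0.000159). RND3 (chr2:150468195-150539011), a regulator of the actin cytoskeleton named by the difference from KMT2D-WT cells, measured 59.2, 70.6, 112 and 106 CPM with glucose and 442, 412, 623 and 645 CPM without it, with no overlap between conditions. It rose 6.05-fold (log2 fold change 2.60 ± 0.09 (SE), adjusted p = 4.55e-05). Inflammatory cytokine genes rose in 7 of 16 cases with a median of 0.81. IL1B measured 13.1, 8.55, 5.54 and 5.02 CPM with glucose and 65.3, 19.6, 17.8 and 20.8 CPM without it and rose 3.7-fold (adjusted p = 0.00881), with the KO1 library of experiment 1 the highest. TNFAIP3, the A20 enzyme that limits NF-κB, measured 172, 181, 219 and 155 CPM with glucose and 723, 715, 579.9 and 584 CPM without it and rose 3.48-fold (log2 fold change 1.80 ± 0.13 (SE), adjusted p = 0.000415). In the 3 against 3 fit 2 genes of the YAP and TEAD list and 2 of the cytokine list were called higher.

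**Figure D4:**
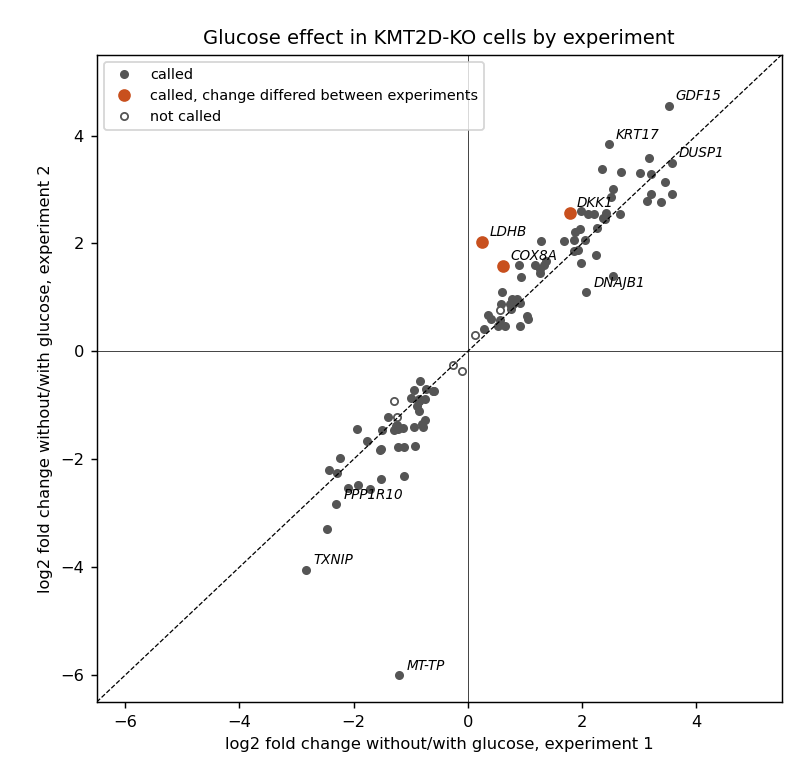
Log2 fold change without against with glucose in experiment 1 (x axis) and in experiment 2 (y axis) for the genes named in the text, open where not called and orange where the change differed between the experiments, with the diagonal dashed. The 3 orange points, LDHB, COX8A and DKK1, lie above the diagonal with larger rises in experiment 2.

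Of 9 genes of the epidermal growth factor receptor family and its ligands, 3 rose and 2 fell (2 and 1 with offsets for length and GC content). The ligands AREG and NRG1 rose 1.74-fold and 1.82-fold (adjusted p = 0.00355 and 0.00461), and AREG had an adjusted p of 0.0554 with the offsets. Squamous keratins and differentiation genes rose in 6 of 24 cases and 1 fell. KRT16, a partner keratin of activated epidermis, measured 1.06, 3.46, 0.926 and 1.28 CPM with glucose and 9.73, 20.5, 12.5 and 9.8 CPM without it and rose 8.04-fold (log2 fold change 3.01 ± 0.43 (SE), adjusted p = 0.00376). Of 17 mesenchymal transition genes 6 rose, among them SNAI2, the repressor Slug (2.6-fold, adjusted p = 0.00402). The 3 against 3 fit called 2 of the mesenchymal genes and 0 of the growth factor and keratin lists by edgeR, in which 2 and 6 were higher at an unadjusted p under 0.05.

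Notch genes were the list with the lowest median, -0.93, and 6 of 12 fell. The receptors NOTCH1 and NOTCH2 fell 1.99-fold and 1.92-fold (adjusted p = 0.00689 and 0.00786). NOTCH2 measured 223, 173, 289 and 231 CPM with glucose and 79, 126, 144 and 141 CPM without it, and the groups did not overlap. The ligand JAG1 measured 48.9, 65, 54.6 and 63.4 CPM with glucose and 95.5, 371, 356 and 361 CPM without it and was the gene that rose, by 4.89-fold (adjusted p = 0.00656), with a much smaller -Glc value in KO1 of experiment 1 than in the other 3. Once both libraries labelled KO1 in experiment 2 were left out, adjusted p were 0.0809, 0.0809 and 0.0777, and edgeR called 0 Notch genes, while 6 were lower and 1 higher at an unadjusted p under 0.05.

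Targets of p53 included 7 of 22 genes higher and 3 lower, and 5 and 1 were called with both libraries labelled KO1 in experiment 2 left out. GADD45A (chr1:67685201-67688334), a growth arrest gene that also answers to ATF4, measured 153, 217, 138 and 151 CPM with glucose and 1094, 916, 783 and 801 CPM without it and rose 5.34-fold (log2 fold change 2.42 ± 0.13 (SE), adjusted p = 0.000131). GADD45B rose 5.35-fold (log2 fold change 2.42 ± 0.10 (SE), adjusted p = 7.95e-05). The antiproliferative gene BTG2 fell 3.24-fold (adjusted p = 0.00331). TIGAR, a fructose bisphosphatase that lowers glycolytic flux, measured 9.03, 7.54, 12.7 and 10.9 CPM with glucose and 3.26, 2.69, 2.37 and 2.2 CPM without it and fell 3.89-fold (log2 fold change -1.96 ± 0.23 (SE), adjusted p = 0.00199). The summed level of the list was 738 to 922 CPM with glucose and 1951 to 2372 CPM without it, and GADD45A made up a large part of the latter. The median log2 fold change of the list was 0.17, with 13 of 22 above 0. Over all genes 14% were higher and 16% lower.

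Of 26 apoptosis genes 4 rose and 5 fell, near the 14% and 16% over all genes. With offsets for length and GC content 8 were higher and 3 lower. The 4 were among 13 BH3 and BCL2 family genes and the 5 among 13 death receptors, caspases and their inhibitors (2 with the block), and the difference between families was not tested. BBC3, the BH3 protein PUMA, rose 5.18-fold (adjusted p = 0.00931) from 0.913 ± 0.198 CPM with glucose to 4.79 ± 2.62 CPM without it (mean ± SD, n = 4 each). PMAIP1, the BH3 protein NOXA, measured 4.9, 4.95, 7.49 and 7.61 CPM with glucose and 12.5, 12, 19.9 and 21.2 CPM without it and rose 2.55-fold (log2 fold change 1.35 ± 0.12 (SE), adjusted p = 0.000927). APAF1, the scaffold of the apoptosome, measured 16.2, 21.4, 26.9 and 36.2 CPM with glucose and 5.52, 8.12, 10.9 and 12.2 CPM without it and fell 2.8-fold (log2 fold change -1.49 ± 0.18 (SE), adjusted p = 0.00199). The ubiquitin ligase BIRC2 fell 1.79-fold (adjusted p = 0.00148), with levels in experiment 2 above those in experiment 1 in both conditions. The 3 against 3 fit called 1 apoptosis gene higher and 2 lower.

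Small nucleolar RNA host genes, many of whose spliced products are removed by nonsense-mediated decay, rose in 10 of 19 cases and fell in 3. GAS5 rose 1.86-fold (adjusted p = 0.00636), whereas SNHG3 measured 102, 131, 78.3 and 105 CPM with glucose and 45.1, 39.2, 27.1 and 25.4 CPM without it and fell 3.17-fold (log2 fold change -1.67 ± 0.14 (SE), adjusted p = 0.000614), and SNHG4 fell 3.24-fold (adjusted p = 0.00614). Of 10 decay factors 3 fell, among them the helicase UPF1 (1.86-fold, log2 fold change -0.90 ± 0.09 (SE), adjusted p = 0.00127). Within the KMT2 family and its partners, 1 of 15 rose and 1 fell, below the 14% and 16% over all genes. The gene that rose was KDM6A, an H3K27 demethylase that partners KMT2D (2.36-fold, adjusted p = 0.0152). Its call was lost without the -Glc KO2 library of experiment 2 (adjusted p = 0.0520). Among host genes 1 was higher and 2 lower in the 3 against 3 fit, and 2 decay factors were lower.

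For some genes the size of the glucose effect differed between the genotypes. In the fit of all 14 libraries, the effect differed between KMT2D-KO and KMT2D-WT cells for 2105 of 18678 genes (11.3%), 884 with a more positive and 1221 with a more negative change in KMT2D-KO cells. The count ran from 788 to 4230 on leaving out single libraries, was 583 without both libraries labelled KO1 in experiment 2, and was 0 in experiment 1 alone by edgeR, where 400 of 18571 genes had an unadjusted p under 0.05, the smallest adjusted p was 0.9999 and KMT2D-WT cells had 1 library per condition.

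Among single genes, DUSP1 measured 59.7, 58.1 and 48.0 CPM with glucose and 146, 124 and 114 CPM without it in KMT2D-WT cells, a log2 fold change of 1.21, and the KO minus WT difference was 2.34 ± 0.20 (SE, adjusted p = 6.9e-05). TUFT1, which encodes tuftelin, had differences close to its whole change, with a log2 fold change of 2.77 in KMT2D-KO and 0.14 in KMT2D-WT cells (difference 2.65, adjusted p = 8.35e-05). The same held for RBM12B (-2.12 against -0.15, difference -1.95, adjusted p = 8.88e-06) and for CITED2 (2.05 against 0.09, difference 1.98, adjusted p = 6.9e-05). DKK1, a secreted Wnt inhibitor, had a difference of 1.43 (adjusted p = 8.07e-06), and PIGM, a mannosyltransferase of GPI anchors, one of -1.59 (adjusted p = 8.35e-05) with a WT log2 fold change of 0.28. MYC rose more in KMT2D-KO cells by 1.34 (adjusted p = 4.49e-05).

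Other genes had a KO minus WT difference that did not pass the test. TXNIP changed by -4.31 in KMT2D-WT cells (difference 0.89 ± 0.38, adjusted p = 0.149), DOK3 by -2.25 (difference -0.06 ± 0.15, adjusted p = 0.861) and ASNS by 1.84 (difference 0.46 ± 0.34, adjusted p = 0.419). For DDIT4 the WT value was 2.14 and the difference -0.62 ± 0.22 (adjusted p = 0.0897). By list, 28 of 76 ribosomal protein genes had a more positive effect in KMT2D-KO cells, as did 7 of 46 ATF4 genes and 9 of 35 immediate early genes, and 11 of 54 Fanconi anemia and crosslink repair genes had a more negative one and 2 a more positive one. Over the 16057 genes tested in KMT2D-KO cells these numbers were 875 more positive and 1134 more negative. The study took up the Fanconi anemia pathway by comparing the genotypes in the same -Glc libraries. These enter the KO minus WT difference, so the direction of that list is not independent evidence.

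**Figure D5:**
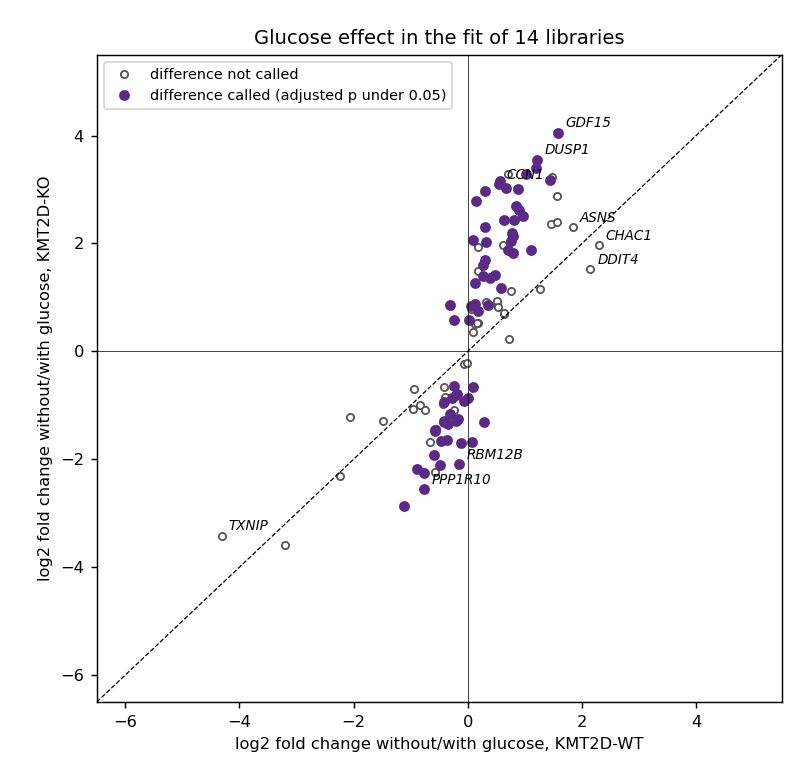
Log2 fold change without against with glucose in KMT2D-WT (x axis) and KMT2D-KO cells (y axis) in the fit of 14 libraries for named genes, filled where the difference was called and with the diagonal dashed. GDF15 and DUSP1 lie far above the diagonal, RBM12B and PPP1R10 far below it, and DDIT4 and TXNIP were not called different.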

How the data were processed

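PolyA RNA of SCC23 cells had been sequenced in 14 libraries. The authors aligned reads with HISAT2 to GRCh38 and deposited raw featureCounts counts per gene, counted without strand, so overlapping antisense genes cannot be separated. The 4 deposited +Glc count files of experiment 2 counted both mates of a pair, giving more even numbers.

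Groups came from the sample titles. Counts of the 8 KMT2D-KO libraries were filtered with filterByExpr (minimum count 10), scaled by TMM and fitted with edgeR 4.0.16 (limma 3.58.1, R 4.3.3) by glucose and experiment. A gene was called at an adjusted p under 0.05 with the same sign in experiment 1, a requirement that removed no gene. The KO minus WT difference was fitted in 14 libraries with experiment within each condition. Per-library values are TMM-scaled CPM. The tests were also run on simulated counts, drawn independently and without effects of line or experiment. That could not check p-values for libraries as alike as the close -Glc pair.

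Libraries of the same line label and experiment deviated together (correlations 0.305, 0.170, 0.133 and 0.231), although the -Glc library labelled KO1 in experiment 2 correlated more with +Glc KO2 of that experiment (0.261) than with its own label. This pairing comes from the labels of line and experiment.

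The gene lists came from general knowledge and, with the members, were chosen with earlier results of these data known. Named genes were KMT2D and the 10 called genes with the largest changes each way (mean of at least 5 CPM, 4 label-matched differences of the same sign). Added to these were up to 4 called genes each way per list and the 10 called genes with the smallest adjusted p of the KO minus WT difference. Some genes the study names as glycolytic or Fanconi anemia genes were also named. Of the study's genes, GCLC, HKDC1, SLC16A1, FANCI, FANCM, REV3L, POLQ, TOP3A, FANCG and FANCL are not given singly. Genes whose calls were lost on leaving out several libraries mostly stand only in the counts. RefSeq windows (GRCh38.p14) were available for 10490 tested genes.

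Alternatives were other scalings and filters, DESeq2 1.42.0, other covariates, the replicate block, each experiment alone, halved counts, offsets for length and GC content, and leaving out each library. Leaving out both libraries labelled KO1 in experiment 2 was chosen after seeing the data.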

Additional observations from a re-analysis of the deposited data

Results flagged for a closer look

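A closer look is warranted where a library stood apart from the other 3 of its condition, where the glucose effect differed between KMT2D-KO and KMT2D-WT cells, or where it differed between the experiments. The causes of these differences were not tested.

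In 22 of 220 groups of 4 libraries (110 named genes in 2 conditions), 1 library was separated from the nearest other by a share of the group's range above Dixon's 95% critical value, given here as a ratio. Chance flags about 1 in 20 such groups when the 4 values are independent, which the -Glc libraries were not. The -Glc library labelled KO1 in experiment 1 was the separated library in 16 of the 22. It was the only -Glc library nearer KO1 at the 33 genes that separate the lines, and 2 of the other 3 were nearly alike. It was the highest for ATF5 (20.5 CPM, median of the others 13.9 CPM, ratio 0.871), CCN1 (3787 CPM, median of the others 1573 CPM, ratio 0.887), CCN2 (768 CPM, median of the others 480.2 CPM, ratio 0.884), DNAJB1 (1418 CPM, median of the others 478 CPM, ratio 0.949), GINS1 (33.1 CPM, median of the others 27.2 CPM, ratio 0.957), IL1B (65.3 CPM, median of the others 19.6 CPM, ratio 0.936), MT-CO3 (1663 CPM, median of the others 1266 CPM, ratio 0.841), PPP1R10 (41.2 CPM, median of the others 16.2 CPM, ratio 0.936), PTGER4 (40.5 CPM, median of the others 15.2 CPM, ratio 0.988) and TXNIP (9.73 CPM, median of the others 3.53 CPM, ratio 0.945). It was the lowest for ASNS (5.96 CPM, median of the others 10.9 CPM, ratio 0.832), HSPA5 (655 CPM, median of the others 1388 CPM, ratio 0.938), IRS2 (37.2 CPM, median of the others 124 CPM, ratio 0.977), JAG1 (95.5 CPM, median of the others 361 CPM, ratio 0.947), KLF10 (18.8 CPM, median of the others 31.8 CPM, ratio 0.975) and KLF4 (110.0 CPM, median of the others 184 CPM, ratio 0.889).

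The -Glc KO2 library of experiment 1 was the highest for CITED2 (115 CPM, median of the others 92.1 CPM, ratio 0.839) and PPP1R15A (944 CPM, median of the others 680.0 CPM, ratio 0.881). With glucose, the KO1 library of experiment 2 was the lowest for IL6 (2.86 CPM, median of the others 4.25 CPM, ratio 0.912) and the highest for NOTCH1 (51.2 CPM, median of the others 40.9 CPM, ratio 0.899) and XBP1 (70 CPM, median of the others 58.1 CPM, ratio 0.904). The KO2 library of experiment 1 was the highest for KRT16 (3.46 CPM, median of the others 1.06 CPM, ratio 0.859).

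The log2 fold change without against with glucose was more positive in KMT2D-KO than in KMT2D-WT cells, by edgeR's test of the difference in all 14 libraries, for 39 named genes. Over all 18678 genes tested, 884 were more positive and 1221 more negative. Named genes were picked for large changes in these libraries, and some for this difference itself, so their number is no estimate of a share. The KO minus WT difference in log2 fold change was largest for CCN2 2.67, TUFT1 2.65, KRT17 2.60, CCN1 2.54, GDF15 2.47, KRT16 2.34, DUSP1 2.34, IL6 2.28, PPP1R15A 2.19, DDX47 2.13 and JAG1 2.01. It was CITED2 1.98, KLF4 1.85, GADD45B 1.81, PPP1R3B 1.73, RND3 1.73, DUSP10 1.72, GADD45A 1.63, ATF3 1.53, DKK1 1.43, DNAJB9 1.40, MYC 1.34, DNAJB1 1.33, HERPUD1 1.29, XBP1 1.18, CDT1 1.18, KDM6A 1.14, SNAI2 1.13 and TNFAIP3 1.03. Smaller differences were PMAIP1 0.98, HSPA5 0.93, MT-ND4 0.82, BAG3 0.78, SESN2 0.77, NRG1 0.76, CARS1 0.59, TKT 0.57, FANCE 0.56 and RPL11 0.51.

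The change was more negative in KMT2D-KO cells for 28 named genes, which were picked in the same way. The KO minus WT difference was lowest for RBM12B -1.95, PPP1R10 -1.80, LHX1 -1.74, SNHG4 -1.74, TRPV1 -1.62, PIGM -1.59, EDEM3 -1.58 and FZD4 -1.49. For the next genes it was TIGAR -1.34, IL18BP -1.30, SNHG3 -1.27, BTG2 -1.20, GINS1 -1.09 and SLX4 -1.08. It was IER2 -0.99, PPARA -0.91, ESPL1 -0.90, APAF1 -0.88, FAN1 -0.87, ASPM -0.86, NOTCH2 -0.85, POLH -0.85, ATR -0.75, BIRC2 -0.62, CAD -0.61, UPF1 -0.59, MKI67 -0.51 and BRCA1 -0.41.

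Within KMT2D-KO cells, the log2 fold change in experiment 2 exceeded that in experiment 1 by 0.97 for COX8A, by 0.79 for DKK1 and by 1.78 for LDHB, in a test of the experiment by glucose interaction. The +Glc libraries of experiment 2, but not those of experiment 1, counted both mates of each pair, and the part of that in these differences was not tested.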

How the results depend on the processing

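Counts moved with the libraries and the model more than directions did. Of 110 named genes, COX8A changed sign, to -0.0577 with length and GC offsets. Over all reported calls, 106 of the 2240 higher and 11 of the 2573 lower changed sign under those offsets. There MT-ND4, KLF10, AREG and FAN1 also lost their calls, and 2980 genes were higher and 2172 lower (57.8% higher).

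Other fits gave, as higher and lower, 1005 and 3869 by library size only (20.6% higher against 46.5%), 3611 and 3127 without a filter, 4111 and 2785 by DESeq2 with experiment, 1353 and 1697 by DESeq2 without it, 363 and 1102 by edgeR without it, 351 and 763 for the effect in experiment 1 from the experiment by glucose model, 4176 and 4046 in experiment 2 alone, 4732 and 4505 in all 14 libraries, 1101 and 1181 with the close pair summed and 1107 and 2135 at 1.5-fold or more. Experiment 1 alone gave 0 and 0 by edgeR, with 2527 of 15946 genes at an unadjusted p under 0.05 and a smallest adjusted p of 0.0525. Leaving out both libraries labelled KO1 in experiment 2 gave 99 and 275, all among the reported calls, and 56 of 104 called genes named in the text kept their calls. With the replicate block (line label and experiment as pairs) 1546 genes were higher and 2043 lower. The block changed no call of a gene named in the text other than those given there, and list counts of 4 or fewer by at most 2 genes.

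Leaving out 1 library at a time gave 848 to 3070 higher and 1139 to 3300 lower. Counts moved by over 1.5 times without each library of experiment 2, to 1263 higher and 1155 higher without +Glc KO1 and KO2 (1622 lower without KO2), and to 1057 and 1139 without -Glc KO1 and 848 and 1143 without -Glc KO2. Of the 104 genes, 94 kept their calls throughout. Genes whose calls were lost on leaving out several libraries were mostly not named. The 94, and the 56 kept without both KO1 libraries of experiment 2, therefore do not describe all calls.

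The 2105 KO minus WT differences became 3473 with DESeq2, 583 without both KO1 libraries of experiment 2 and 0 in experiment 1 alone (400 of 18571 at an unadjusted p under 0.05, smallest adjusted p 0.9999, 1 WT library per condition). Leaving out 1 library gave 788 to 4230. The count moved by over 1.5 times without any 1 of the WT libraries (+Glc 901, 1138 and 1246, -Glc 788, 911 and 951, in the order WT of experiment 1, WT1 and WT2), without -Glc KO1 of experiment 1 (4230), and without -Glc KO1 or KO2 of experiment 2 (1005 and 1016). The causes were not tested, and fewer libraries enter each smaller fit. Other settings stayed within 1.5 times.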

Other observations

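Several gene groups remain to be described, all in KMT2D-KO cells without against with glucose and by the same test. Over all genes tested, 14% were higher and 16% lower. Of 22 NRF2 and glutathione genes, 8 rose, with a median log2 fold change of 0.34, and their summed level was 2992 to 3349 CPM with glucose and 4578 to 5491 CPM without it, so these ranges did not overlap. Of 12 glutamine and aspartate genes 5 rose and 2 fell. Of 20 targets of the hypoxia factor 4 rose and 2 fell, with a median log2 fold change of 0.26. Their summed level, which is weighted to the most abundant members, was 690 to 857 CPM with glucose and 1203 to 1292 CPM without it. With offsets for gene length and GC content 9 of these targets were higher and 1 lower. Within the MYC network, 2 of 9 genes rose and 3 fell.

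Replication-dependent histone genes, which a polyA library captures poorly, gave 2 higher and 1 lower of 26. Interferon-stimulated genes gave 2 higher and 2 lower of 18. Circadian clock genes gave 1 higher and 1 lower of 14. The shares of the histone, interferon-stimulated and clock lists were below the 14% higher and 16% lower over all genes. With both libraries labelled KO1 in experiment 2 left out, edgeR called 0 genes of the NRF2 and glutathione list, while 10 had an unadjusted p under 0.05 with a higher level. It called 0 hypoxia factor targets, with 4 higher and 1 lower at an unadjusted p under 0.05. It called 1 glutamine and aspartate gene and 1 MYC network gene higher, and 0 histone, interferon-stimulated and clock genes, of which 1, 2 and 2 were higher and 1, 1 and 1 lower at an unadjusted p under 0.05.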
